A study of Mus musculus with 24 samples.

Results

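Lungs of 5-day-old (P5) mice in which *Vangl2* had been deleted through Sox9Cre were compared with control lungs of the same age. The comparison holds 6 of the 24 lungs of the series, 3 in each group. Its table lists 23420 genes, of which 17410 reached a normalized count of 1 in at least 3 of these lungs and were tested. A normalized count is the number of reads on a gene divided by a size factor for the lung. The study asked how the planar cell polarity pathway acts in the formation of alveoli, and sequenced the left lobe of *Vangl2* and *Ror2* mutants and of their own controls at P2 and P5.

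The mutants carried floxed *Vangl2* alleles (Sox9Cre; Vangl2f/f in their titles), and the controls are entered as wild type (WT), with no statement on whether they carried the Cre. Titles of the controls name *Vangl1* beside *Vangl2*, whereas those of the mutants do not name *Vangl1*. What *Vangl1* marks in the control titles is not stated. Cre was expressed from the *Sox9* locus, which is active in the distal lung epithelium and also in other organs. Deletion was therefore not limited to the lung, and the mesenchyme of the lung kept *Vangl2*. Mutant mice were smaller than controls by P2, and deaths occurred around the age studied here, so the lungs came from animals alive at collection. The genotype entries of the 3 mutants name *Ror2* in place of *Vangl2*, in conflict with their titles and with the name of their table, and the titles were followed. RNA came from whole lobes, so epithelium, mesenchyme, vessels and blood were measured together, and fewer cells of a type cannot be told apart from less RNA per cell.

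Planar cell polarity aligns cells within the plane of a tissue. VANGL2 is a membrane protein at the core of the pathway, with the cadherins of the CELSR family, the Frizzled receptors and the cytoplasmic Dishevelled proteins, and ROR2 is a receptor for Wnt ligands that signals to it. During the first postnatal weeks, saccules are divided into alveoli by septa, which need thin alveolar type I cells, surfactant-producing type II cells, contractile myofibroblasts that respond to PDGF and lay down elastin, and a capillary network.

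Of the 6 lungs, 3 stood apart in ways that the labels do not give. Mutant 3 held transcripts of the thymus. *Rag1*, which recombines antigen receptor genes in thymocytes, had 8683 normalized counts in it and at most 10.1 in any other lung. *Prss16*, a protease of the thymic cortex, had 3119 against at most 14.6, and the 12 tested members of a list of 14 thymocyte and thymic epithelium genes summed to 28058 normalized counts against 162 to 382 in the other 5 lungs. Control 3 held transcripts of the liver. *Alb*, which encodes albumin, had 3511 normalized counts in it and at most 34.1 elsewhere, and the 7 tested members of a list of 10 hepatocyte genes summed to 5900.2 against 33.6 to 83.4. Both lists were drawn up after these values had been seen. Mutant 1 was male, with 19.2 normalized counts of *Xist* and 2137 of the Y-linked *Ddx3y*, and the other 5 lungs were female. Reads on genes ranged from 16178031 to 21546673 per lung.

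**Figure D1:**
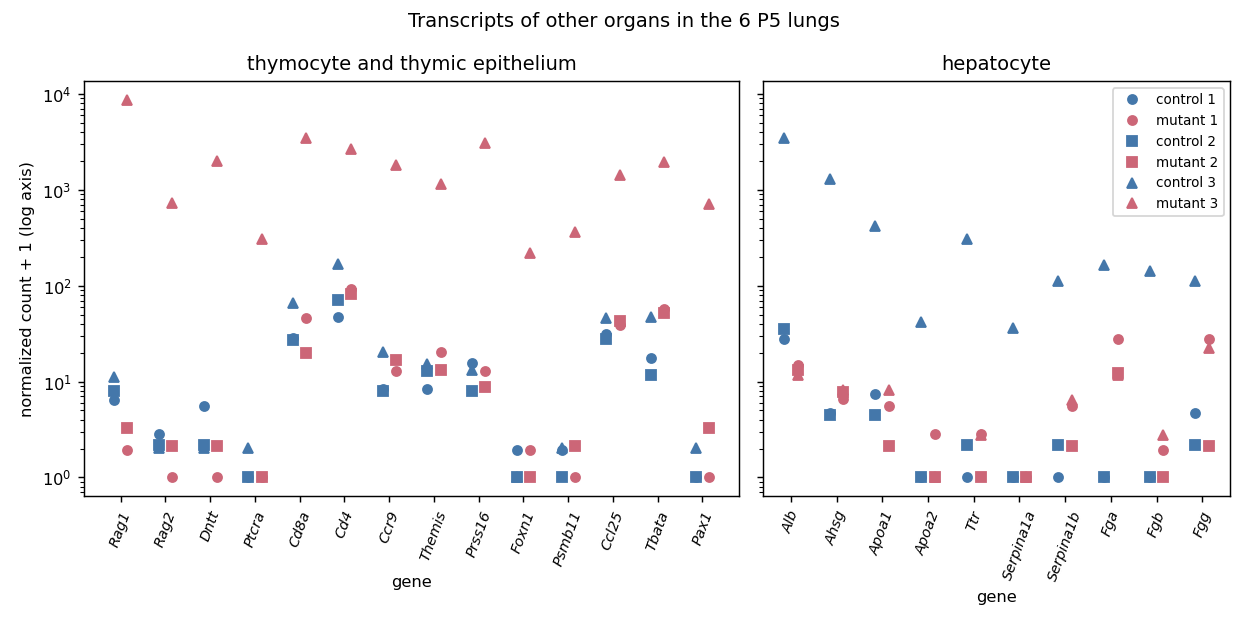
Normalized count plus 1 (log axis) of thymus genes (left) and hepatocyte genes (right) in each of the 6 lungs, with control lungs in blue and mutant lungs in red. Every thymus gene was highest in mutant 3 and every hepatocyte gene in control 3.

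Lungs with the same number resembled each other across the groups. Pearson's r of the deviations from the group means, taken across genes, was 0.38, 0.34 and 0.24 for the pairs numbered 1, 2 and 3. It was between -0.27 and -0.05 for all other pairs of a control and a mutant. Deviations cancel out within each group, so positive same-number values draw the others down, and the negative values are no separate evidence. Ribosomal protein genes showed this pairing in single values. *Rps29*, a protein of the small ribosomal subunit, had 4805 normalized counts in control 1 and 8441 in mutant 1, against 444 and 1040.0 in controls 2 and 3 and 603 and 1670.1 in mutants 2 and 3. The replicate number was therefore also used as a block, which compares each mutant with the control of its number, and leaves 2 residual degrees of freedom in place of 4.

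*Vangl2* (chr1:172000960-172027318, GRCm38.p6) had 369, 314 and 292 normalized counts in the controls and 169.5, 148 and 166 in the mutants. No mutant lung reached the lowest control, and the exact permutation test gave a two-sided p of 0.1, the smallest possible with 3 lungs against 3. The log2 fold change was -1.003 (standard error 0.18), with a limma adjusted p of 0.0604 without the block and 0.0194 with it. *Ror2* had 611, 478 and 487 normalized counts in the controls and 541, 351 and 273 in the mutants, with groups that overlapped (log2 fold change -0.48, standard error 0.25, adjusted p = 0.348, 0.096 with the block). Of both genes, the one named in the titles of the mutants was the one whose groups did not overlap.

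Inflammatory and acute phase transcripts were higher in the mutants, and with the block airway epithelial transcripts were higher and part of the mesenchymal, endothelial and mitotic ones lower. Without the block, limma called 93 genes higher in the mutants (0.534% of genes tested) and 5 lower (0.0287%) at a Benjamini-Hochberg adjusted p under 0.05, together 0.563%. An unadjusted limma p under 0.05 was reached by 3270 genes (18.8%), the share against which the counts at that p in the gene lists are to be read. On the recovered reads, edgeR called 0.599% of the genes it tested and DESeq2 8.28%. Log2 fold changes of the 93 ran from 0.78 to 4.51, with a median of 1.76. Mutant 3 was the highest mutant lung for 40 of them, mutant 1 for 38 and mutant 2 for 15. In each of the 98 genes the 3 mutant lungs lay on one side of all 3 control lungs. Of all tested genes, 13.2% had every mutant above every control and 12.5% had every mutant below. The 98 genes were called on these same lungs, so their separation is no separate support.

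With the block, 952 genes were called higher (5.47%) and 606 lower (3.48%), together 8.95% and including all 98, and edgeR with the block called 9.15% of the genes it tested. Groups overlapped for 204 of these 1558 genes. The median log2 fold change was 1.11 for those called higher and -0.68 for those called lower. Mutant 3, the lung with thymus transcripts, was the lowest mutant lung for 489 of the 606 genes called lower, against 43 for mutant 1 and 73 for mutant 2. The part of the thymus transcripts in this was not tested. The median log2 fold change of the 606 genes was -0.54 without mutant 3. Without mutant 3, no gene was called without the block (0 by limma, with 2380 at an unadjusted p under 0.05, and 0 by edgeR). Leaving out control 1, 2 or 3 gave 41, 5 and 19 called genes, and leaving out mutant 1 or 2 gave 7 and 54. Without mutant 3, the 93 genes had log2 fold changes from 0.78 to 4.39, with a median of 1.70. They had been chosen with mutants 1 and 2 included, so this range is no independent check.

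**Figure D2:**
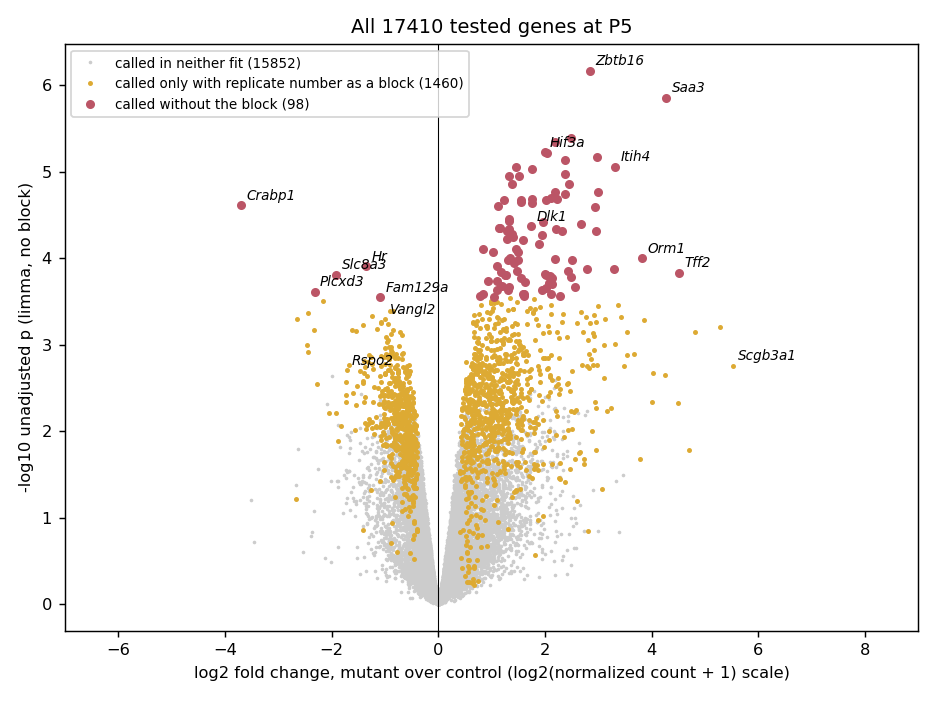
Log2 fold change (mutant over control) against −log10 of the unadjusted limma p without the block for the 17410 tested genes. Red points are the 98 genes called without the block, 93 of them to the right of 0, yellow points the 1460 called only with the block, and grey points the rest.

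The lowest p of all genes belonged to *Zbtb16*, a zinc finger transcription factor induced by glucocorticoids in many cells. It had 91.2, 83.5 and 63.5 normalized counts in the controls and 636, 514 and 564 in the mutants. The groups were far apart, and the lungs within each group lay close together (log2 fold change 2.84, standard error 0.21, adjusted p = 0.0118). *Hif3a*, a hypoxia-inducible factor subunit, had 134, 199 and 159 in the controls and 629, 599 and 724 in the mutants (1.99, standard error 0.19, adjusted p = 0.0141). Of 20 glucocorticoid-responsive genes, 2 were called without the block, *Zbtb16* and *Lcn2*, and 6 with it, all higher. Over all tested genes, 0.534% and 5.47% were called higher in these fits. *Lcn2* is also a member of the acute phase, neutrophil and mucosal antimicrobial lists below. The median log2 fold change of the glucocorticoid-responsive list was 0.63 against 0.00 over all genes. *Klf15*, a transcription factor of amino acid and lipid metabolism, had 136, 119 and 187 in the controls and 351, 325 and 542 in the mutants. *Tsc22d3*, which encodes the glucocorticoid-induced leucine zipper protein, had 1634, 1467 and 1613 against 3087, 2764 and 2295. Both passed only with the block (adjusted p = 0.00885 and 0.0184).

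Acute phase proteins are secreted by liver and epithelia during inflammation, and transcripts of most of the tested members were higher in the mutants with the block. Of 33 listed, 25 were tested, 8 were called higher without the block and 17 with it, none lower in either fit. Over all tested genes, 0.534% and 5.47% were called higher. The median log2 fold change of the list was 2.19. *Ptx3*, a secreted pentraxin, went the other way without passing in either fit, with 83.9, 95.2 and 71.5 normalized counts in the controls and 59.6, 57.1 and 34.8 in the mutants (adjusted p = 0.241, 0.111 with the block). *Saa3*, a serum amyloid A made outside the liver, had 60.2, 72.9 and 28.2 normalized counts in the controls and 1147, 992 and 841 in the mutants (log2 fold change 4.28, standard error 0.34, adjusted p = 0.0121). *Itih4*, a protease inhibitor heavy chain, had 114, 102 and 209 against 1215, 2024 and 995 (3.31, standard error 0.34, adjusted p = 0.0141). In both genes every mutant lung lay several fold above the highest control. *Lrg1*, a leucine-rich glycoprotein of neutrophils and endothelium, had 276, 156 and 141 in the controls and 2181, 968 and 1294 in the mutants (2.93, standard error 0.34). *Orm1*, an acute phase glycoprotein, was low in the controls with 9.12, 2.35 and 7.05 and had 142, 96.3 and 53.6 in the mutants (3.81, standard error 0.54). *Cfb*, complement factor B of the alternative pathway, had 286, 192 and 284 against 1412, 835 and 1084 (2.11, standard error 0.24). The list stood highest among the controls in control 3, the lung with hepatocyte transcripts, at 0.68 log2 units above the control mean, against -0.10 and -0.58 in controls 1 and 2. Without both lungs numbered 3 the median was 2.09.

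The promoters of *Saa3*, *Lcn2* and *Itih4* of the acute phase list and of *S100a9*, a neutrophil and mucosal defence gene outside it, are shown. These 4 are a selection from the genes called higher without the block, and each holds a match. The promoters of *Lrg1* and *S100a8*, also called higher, held none of the motifs searched below. RefSeq promoter sequence (GRCm38.p6) was matched for 20 of the 25 tested acute phase genes and for 69 of the 93 genes called higher. The 250 bases before each gene's first listed start were searched on both strands for TTGCNNAA, bound by C/EBP factors, for TTCNNNGAA, bound by STAT factors, for the glucocorticoid receptor element, and for the NF-kappaB motif. In the sequences below, printed 5′ to 3′ on the strand of the gene, capitals mark every match.
Saa3, chr7:46715677-46715926, minus strand, C/EBP motif starting 99 bases before the start: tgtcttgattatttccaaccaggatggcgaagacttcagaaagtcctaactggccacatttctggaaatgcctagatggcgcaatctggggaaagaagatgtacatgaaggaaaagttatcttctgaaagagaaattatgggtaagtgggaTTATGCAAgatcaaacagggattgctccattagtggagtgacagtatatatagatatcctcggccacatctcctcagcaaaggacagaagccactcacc
Lcn2, chr2:32387740-32387989, minus strand, C/EBP motif starting 216 bases before the start: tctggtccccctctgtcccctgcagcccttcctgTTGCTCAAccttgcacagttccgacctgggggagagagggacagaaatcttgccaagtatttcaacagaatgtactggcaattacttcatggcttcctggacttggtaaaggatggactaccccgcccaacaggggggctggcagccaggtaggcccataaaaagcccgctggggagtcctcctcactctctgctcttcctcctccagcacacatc
S100a9, chr3:90695722-90695971, minus strand, C/EBP motif starting 236 bases before the start: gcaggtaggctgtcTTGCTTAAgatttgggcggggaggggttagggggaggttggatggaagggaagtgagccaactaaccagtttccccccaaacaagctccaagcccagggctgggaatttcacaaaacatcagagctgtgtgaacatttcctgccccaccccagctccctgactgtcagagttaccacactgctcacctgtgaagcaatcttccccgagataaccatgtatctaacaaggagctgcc
Itih4, chr14:30886226-30886475, plus strand, STAT motif starting 51 bases before the start: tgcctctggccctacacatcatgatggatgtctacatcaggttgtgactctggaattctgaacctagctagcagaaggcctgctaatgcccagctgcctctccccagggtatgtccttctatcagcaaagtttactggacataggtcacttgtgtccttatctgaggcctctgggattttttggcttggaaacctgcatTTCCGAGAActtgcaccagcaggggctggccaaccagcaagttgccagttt

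The C/EBP motif was found in 9 of the 20 acute phase promoters (45.0%) and in 14 of the 69 promoters of genes called higher (20.3%), against 9.55% of all 27025 promoters searched in the same way. The STAT motif was found in 5 (25%) and 6 (8.7%), against 7.18% of all. The NF-kappaB motif was in 3 (15%) and 6 (8.7%), against 7.86%, and the glucocorticoid receptor element in 2 and 0, against 0.381%. A match describes letters in this window and no binding was measured.

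Neutrophils carry antimicrobial granules, cysteine protease inhibitors of the stefin family and receptors for bacterial peptides and chemokines. Of 30 genes of neutrophils and their granules, 29 were tested, 11 were called higher without the block and 22 with it, and none was lower. Among all tested genes, 0.534% and 5.47% were called higher. The median of the list was 1.91, and 1.72 without mutant 3. The summed normalized counts of the 29 were 5909 to 9096 in the controls and 26153 to 40484 in the mutants. *S100a8* and *S100a9* encode the subunits of calprotectin. *S100a8* had 909, 581 and 650.0 normalized counts in the controls and 2003, 3345 and 4788 in the mutants (log2 fold change 2.18, standard error 0.31, adjusted p = 0.0316), with mutant 1 the lowest of the mutants. *Lcn2*, which binds bacterial siderophores, had 1399, 801 and 1159.9 against 6069, 5295 and 3829 (2.19, standard error 0.24). *Stfa3*, a stefin, had 136, 122 and 131 against 458, 644 and 709 (2.19, standard error 0.20). The related *Gm5483* had 186, 103 and 136 against 803, 705 and 831, and as stefin genes of this cluster are near copies of each other, reads may have been shared among them. *Fpr2*, a formyl peptide receptor, had 97.6, 76.4 and 63.5 in the controls and 499, 384 and 360.1 in the mutants (2.38, standard error 0.24). *Pglyrp1*, a peptidoglycan recognition protein of granules, had 216, 130.5 and 252 against 1073, 885 and 1059. In each of these genes the lowest mutant was above the highest control. The 25 mucosal antimicrobial genes form a list that shares *Lcn2* and other members with the acute phase and neutrophil lists. Of these, 22 were tested, 7 were called without the block and 16 with it, all higher (0.534% and 5.47% of all tested genes were).

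Macrophages and dendritic cells engulf debris and degrade it in lysosomes. Of 29 macrophage genes, 27 were tested, 3 were called without the block and 14 with it, none lower, with a median of 0.89 (0.80 without mutant 3). Over all tested genes, 0.534% and 5.47% were called higher. *Spp1*, which encodes osteopontin, had 132, 98.7 and 95.7 normalized counts in the controls and 564, 406 and 771 in the mutants (log2 fold change 2.37, standard error 0.27, adjusted p = 0.0148). *Gpnmb*, a glycoprotein of lysosome-rich macrophages, had 97.6, 76.4 and 95.7 against 905, 364 and 1061 (2.96, standard error 0.38). Both were highest in mutant 3 and lowest, among the mutants, in mutant 2. Defining members of the list varied. *Emr1* had 255, 312 and 246 against 393, 478 and 379, and *Mrc1* had 1034, 958 and 985 against 1316, 1421 and 1058. *Marco* had 295, 261 and 139 against 338, 813 and 704, and *Chi3l3* had 115, 49.4 and 47.4 against 684, 306 and 1507. Outside the list, *Ctss*, the lysosomal protease cathepsin S, rose less than *Spp1* and *Gpnmb*. It went from 1050.1, 956 and 829 to 2540.4, 2302 and 2929 (1.45, standard error 0.15). *Il1rn*, the secreted antagonist of the IL-1 receptor, had 126, 110.5 and 87.7 in the controls and 415, 458 and 453 in the mutants (2.04, standard error 0.20, adjusted p = 0.0141). *Clec4d*, a C-type lectin of myeloid cells, had 44.7, 44.7 and 12.1 against 238, 314 and 336 (3.29, standard error 0.49). Of 35 interferon response genes, 2 were called without the block, *Ifitm1* and *Ifitm6*. With the block, 16 were called higher and 1 lower (5.47% and 3.48% of all tested genes were). *Ifitm1*, a membrane protein that restricts virus entry, had 318, 174 and 199 against 1453, 603 and 1046, with the number 1 lung highest in both groups.

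Of 26 lymphocyte genes, 22 were tested, 0 were called without the block by limma or edgeR, 1 had an unadjusted limma p under 0.05 and 1 were called by DESeq2. With the block, 1 was called higher, where 5.47% of all tested genes were. The median was 0.97, but 0.06 without mutant 3, and the summed counts were 20846 in mutant 3 against 1408 and 1943 in the other mutants and 1364 to 2329 in the controls. The sum was thus high in the lung with thymus transcripts, whose part in the result was not tested.

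**Figure D3:**
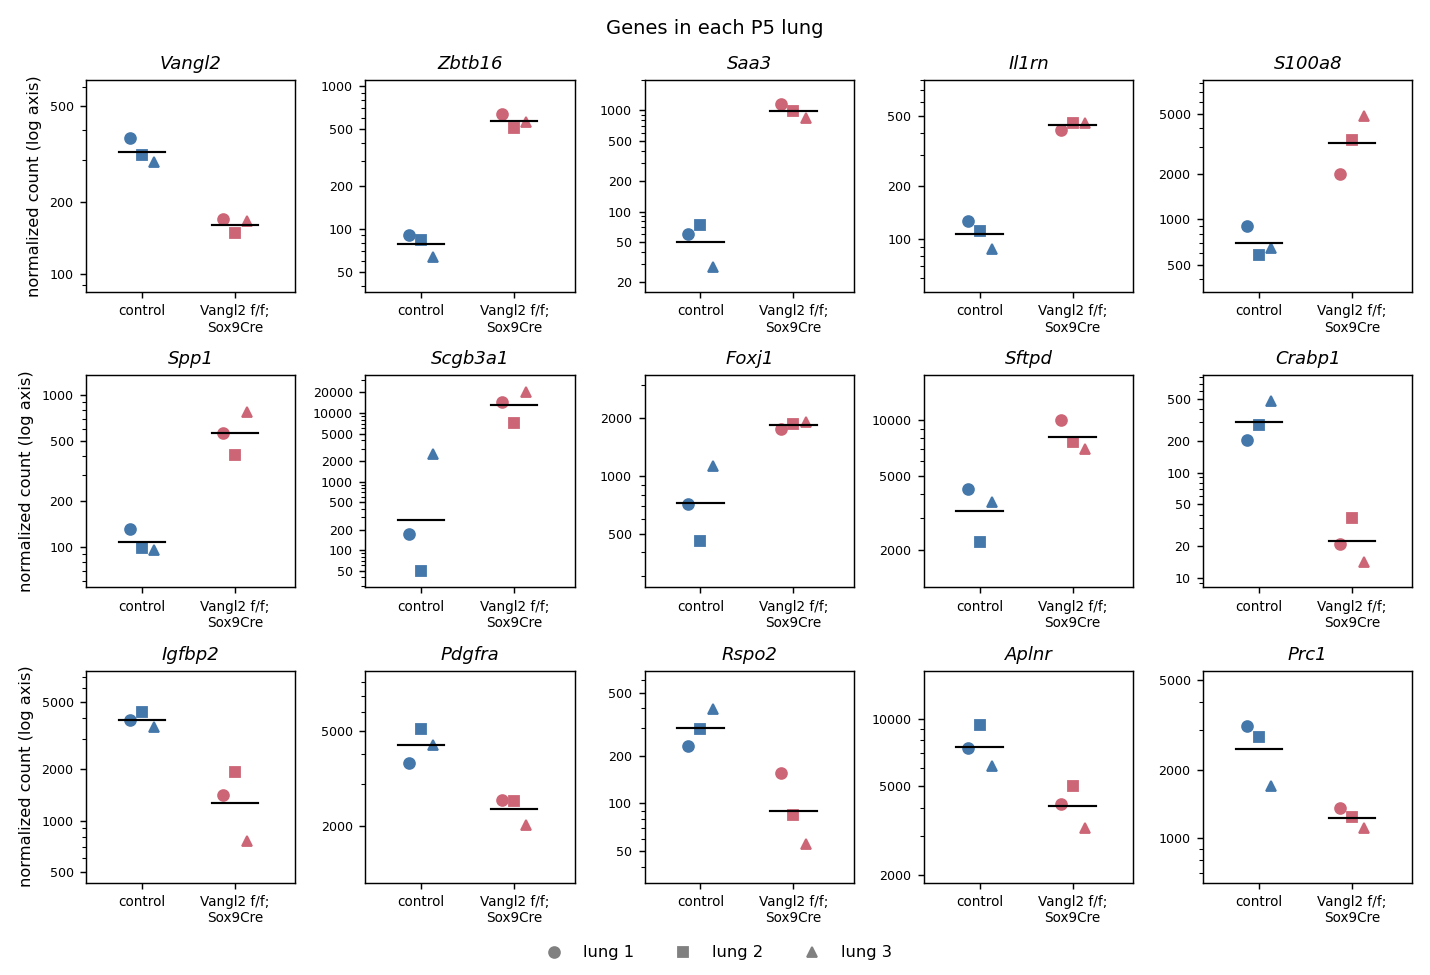
Normalized counts (log axis) of 15 genes in each control (blue) and mutant (red) lung, with a symbol for each lung number and a line at the mean taken on the log2(normalized count + 1) scale. The mutant lungs lie above the controls for the genes from Zbtb16 to Sftpd and below them for Vangl2 and for those from Crabp1 to Prc1.

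Genes of the conducting airway were higher in mutants. Club and goblet cells secrete uteroglobins, mucins and antimicrobial proteins, and multiciliated cells move the mucus. Of 23 genes of club and secretory airway cells, 1 was called without the block (*Tff2*) and 19 with it, all higher, with a median of 1.86. Over all tested genes, 0.534% and 5.47% were called higher. *Tff2*, a trefoil factor that binds mucins, had 6.39, 5.88 and 32.2 normalized counts in the controls and 244, 157 and 512 in the mutants (log2 fold change 4.51, standard error 0.67, adjusted p = 0.0381), the largest change among the called genes. *Scgb3a1*, a uteroglobin of the upper airways, had 172, 50.5 and 2490.1 against 14542, 7238 and 20418 (5.52, standard error 1.21, adjusted p = 0.0882, 0.0111 with the block). Its controls spanned a wide range, yet the lowest mutant was above the highest control. *Reg3g*, an antibacterial lectin, had 56.6, 25.9 and 479 against 3460.5, 1673 and 2881, and *Muc5b*, a gel-forming mucin, had 280.1, 25.9 and 555 against 3046, 2027 and 4681. *Pigr*, which carries antibodies across epithelia, had 125, 18.8 and 72.6 against 1067, 351 and 773. These 3 passed with the block (adjusted p = 0.0122, 0.0123 and 0.00283) and not without it. *Scgb1a1*, the main secretory protein of club cells, changed less, from 77898, 43078 and 79459.5 to 157813, 121691 and 173241 (1.21, standard error 0.40, adjusted p = 0.169, 0.0458 with the block). Control 2 was the lowest lung for each of these genes, and without it the median of the list was 1.13.

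Multiciliated cell genes moved the same way. Of 25, 0 were called without the block by limma or edgeR, 23 had an unadjusted limma p under 0.05 and 14 were called by DESeq2. With the block, 18 were called, all higher (5.47% of all tested genes were), and 20 had every mutant above every control (13.2% of all tested genes had). The median was 1.09, the same value without mutant 3. *Foxj1*, the transcription factor that drives motile cilia, had 719, 461 and 1123 normalized counts in the controls and 1765, 1875 and 1919 in the mutants (log2 fold change 1.36, standard error 0.28, adjusted p = 0.0823, 0.0192 with the block). *Dnahc5*, a dynein arm heavy chain, had 199, 159.9 and 361 against 546, 650.3 and 767. *Cdhr3*, a cadherin-related protein of ciliated cells, had 175, 128 and 245 against 513, 372 and 552. Control 3 was the highest control for all of these and control 2 the lowest.

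Of 24 alveolar type II genes, 1 was called without the block (*Dlk1*) and 9 with it, all higher, with a median of 0.58. Over all tested genes, 0.534% and 5.47% were called higher. *Dlk1*, an imprinted Notch ligand of fetal tissues, had 2130.3, 1427 and 1376 normalized counts in the controls and 5529, 6542 and 4316 in the mutants (log2 fold change 1.74, standard error 0.22, adjusted p = 0.0202). *Meg3*, a noncoding RNA of the same imprinted locus, had 2118, 2694 and 3184 against 4238, 6544 and 4659, and passed with the block (adjusted p = 0.0192). *Sftpd*, surfactant protein D, had 4288, 2222 and 3622 against 9949, 7671 and 6981 (1.32, standard error 0.26, adjusted p = 0.0713, 0.0123 with the block). *Chi3l1*, a chitinase-like protein, had 953, 3149 and 680.2 against 5476, 24368 and 14961, with the number 2 lung highest in both groups. *Sftpc*, the defining surfactant protein of these cells, did not pass in either fit, and its groups overlapped, with 179672, 91779 and 126272 in the controls and 266057, 167338 and 132174 in the mutants.

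Alveolar type I cells form the thin surface for gas exchange. Of 21 of their genes, 0 were called without the block by limma or edgeR, 4 had an unadjusted limma p under 0.05 and 4 were called by DESeq2. The 4 were near the 18.8% of all tested genes that reached that p. With the block, 2 were called higher and 2 lower (5.47% and 3.48% of all tested genes were). *Ager*, a receptor abundant on these cells, had 26302, 23489 and 26805 normalized counts in the controls and 22918, 37219.5 and 25793 in the mutants. *Hopx*, a homeodomain protein, had 3456, 3470.1 and 3536 against 4565, 5446 and 4716, and *Lmo7* was also called higher with the block (adjusted p = 0.0382 and 0.029). *Igfbp2*, an insulin-like growth factor binding protein of mature type I cells, went the other way, with 3900.2, 4347 and 3534 in the controls and 1406, 1919 and 755 in the mutants (log2 fold change -1.63, standard error 0.31, adjusted p = 0.0646, 0.00967 with the block). Every mutant was below every control, and without mutant 3, the lowest, the log2 fold change was -1.25. Of 23 tested genes of epithelial ion and water transport, 3 were called without the block, all higher (0.534% of all tested genes were). *Aqp3*, a water and glycerol channel of airway basal cells, had 46.5, 28.2 and 20.2 against 258, 269 and 211 (2.99, standard error 0.33, adjusted p = 0.0148). *Scnn1a*, the alpha subunit of the epithelial sodium channel, had 3676, 2998 and 3082 against 7888, 6564 and 7420.2 (1.17, standard error 0.15), and *Atp1b1*, a sodium pump subunit, had 3807, 3448 and 3725 against 6075, 7559 and 7544 (0.94, standard error 0.15).

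The 5 genes called lower without the block had varied known roles. *Crabp1*, which binds retinoic acid in the cytoplasm, had 203, 281 and 481 normalized counts in the controls and 21.1, 36.9 and 14.3 in the mutants (log2 fold change -3.69, standard error 0.43, adjusted p = 0.0148), the largest fall of the called genes. *Slc8a3*, a sodium-calcium exchanger, had 315, 342 and 259 against 64.2, 121 and 66.1 (-1.91, standard error 0.29, adjusted p = 0.0381). *Hr*, a corepressor of nuclear receptors, had 258, 288 and 289 against 99.9, 128 and 100.1 (-1.35, standard error 0.20, adjusted p = 0.0353). *Plcxd3*, a phospholipase-like protein, had 39.2, 50.5 and 64.5 against 9.16, 12.3 and 7.15 (-2.31, standard error 0.37, adjusted p = 0.0476). *Fam129a* had 1989, 2308 and 2432 against 1226, 1149 and 815 (-1.09, standard error 0.18), at the edge of the threshold. No mutant lung of these 5 genes reached the lowest control.

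Among genes with a mean of at least 50 normalized counts that were called lower only with the block, those with the largest changes included *Thsd7b*, with 138, 119 and 109.8 in the controls and 11.9, 41.4 and 12.5 in the mutants (log2 fold change -2.65, adjusted p = 0.0185 with the block). *Prokr2*, a prokineticin receptor, had 249, 187 and 336 against 84.3, 79.5 and 19.7 (-2.27, 0.0414). *Rspo2*, a secreted enhancer of Wnt signalling, had 229, 294 and 394 against 155, 85.1 and 55.4 (-1.72, 0.0412). *Enpp1*, which makes pyrophosphate, had 600.3, 464 and 613 against 323, 172 and 83.1 (-1.73, 0.0315). In the last 3 genes mutant 3 was the lowest lung, and their log2 fold changes without it were -1.60, -1.37 and -1.23.

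Some mesenchymal lists held block calls in both directions, with medians below 0. With the block, 3 of 12 lipofibroblast genes were called higher and 1 lower (median -0.15). Of 14 pericyte and mesothelium genes, 2 were higher and 4 lower (median -0.01). That list pools 2 cell types, and its median hides changes in both directions. Every mutant was above every control in 4 of the 14 and below in 5 (13.2% and 12.5% of all tested genes). Of 20 matrix fibroblast genes, 1 was higher and 2 lower (median -0.30). Over all tested genes, 5.47% were called higher with the block and 3.48% lower. Contractile myofibroblasts of the septal tips and the smooth muscle of airways and vessels share many of the genes listed. Of 26 genes of myofibroblasts and smooth muscle, 0 were called without the block by limma or edgeR, 11 had an unadjusted limma p under 0.05 and 8 were called by DESeq2. With the block, 7 were called, all lower (3.48% of all tested genes were), and 14 had every mutant below every control (12.5% of all tested genes had). The median was -0.56, and -0.29 without mutant 3. *Stc1*, a secreted glycoprotein, had 985, 993 and 934 normalized counts in the controls and 529, 452 and 290.4 in the mutants (log2 fold change -1.24, standard error 0.22, adjusted p = 0.0589, 0.0133 with the block). *Synpo2*, an actin-bundling protein of muscle, had 1058, 1023 and 915 against 585, 607 and 474 (-0.85, standard error 0.15, adjusted p = 0.0575, 0.0122 with the block). Both were below the controls in all 3 mutants and lowest in mutant 3. *Myocd*, a coactivator of smooth muscle genes, had 330.3, 219.8 and 244 against 152, 139 and 92.9 (adjusted p = 0.109, 0.029 with the block). *Acta2*, smooth muscle actin, did not pass in either fit, with 19014, 8323 and 13982 in the controls and 17029, 7621 and 5330.2 in the mutants.

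Of 6 genes of PDGF ligands and receptors, 0 were called without the block by limma or edgeR, 2 had an unadjusted limma p under 0.05 and 2 were called by DESeq2. With the block, 2 were called lower, both receptors (3.48% of all tested genes were). *Pdgfra*, which marks myofibroblast precursors, had 3680.3, 5100.5 and 4366 normalized counts in the controls and 2565, 2532 and 2025 in the mutants (-0.88, standard error 0.17, adjusted p = 0.0664, 0.0185 with the block), every mutant below every control. *Pdgfrb*, the receptor of pericytes, had 8769, 8325 and 8797 in the controls and 6652, 4814 and 3644 in the mutants (-0.82, standard error 0.22, adjusted p = 0.12, 0.0349 with the block). The ligand gene *Pdgfa* had overlapping groups. Of 22 genes of elastic fibre assembly, 0 were called without the block by limma or edgeR, 9 had an unadjusted limma p under 0.05 and 4 were called by DESeq2. With the block, 1 was called higher and 3 lower (5.47% and 3.48% of all tested genes were). *Fbn2*, the fibrillin of developing tissue, had 2555, 1821 and 2065 against 1264, 1296 and 475 (-1.21, standard error 0.37, adjusted p = 0.147, 0.0414 with the block). *Eln* itself, which encodes elastin, did not pass in either fit, with 85708, 136876 and 124450.0 in the controls and 86794, 100856 and 68819 in the mutants. Of 26 genes of collagens and their processing, 0 were called without the block by limma or edgeR, 9 had an unadjusted limma p under 0.05 and 4 were called by DESeq2. With the block, 3 were called, all lower, where 3.48% of all tested genes were (median of the list -0.50, -0.28 without mutant 3). *Col1a1* had 43749.5, 34091 and 40043 against 27114, 22410.1 and 13193 and missed the threshold in both fits (adjusted p = 0.156 and 0.0505).

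Of 40 Wnt ligands, antagonists and targets, 0 were called without the block by limma or edgeR, 14 had an unadjusted limma p under 0.05 and 6 were called by DESeq2. With the block, 2 were called higher, near the 5.47% of all tested genes, and 6 lower, where 3.48% of all were. *Ccnd1*, cyclin D1, had 5692, 6322 and 5382 normalized counts in the controls and 3833, 3918 and 2355 in the mutants (log2 fold change -0.82, adjusted p = 0.0241 with the block). *Wif1*, a Wnt inhibitor, had 1489, 2323 and 1671 against 1136, 1016 and 821 (-0.87, 0.0279). *Wnt4* went the other way, with 312, 216 and 176 in the controls and 483, 496 and 645 in the mutants (1.23, 0.0286). Of 31 planar cell polarity genes, *Vangl2* included, 0 were called without the block by limma or edgeR, 10 had an unadjusted limma p under 0.05 and 5 were called by DESeq2. With the block, 1 was called higher, a share below the 5.47% of all tested genes, and 5 lower, where 3.48% of all were. *Dvl3*, a Dishevelled protein, had 1687, 1890.2 and 1765 in the controls and 1183, 1332 and 1128 in the mutants, and *Ror1*, a receptor related to ROR2, had 588, 556 and 659 against 408, 312 and 242 (-0.55 and -0.93, adjusted p = 0.0248 and 0.0321 with the block). *Celsr1*, the cadherin of the core complex in epithelia, was the gene called higher with the block, with 830.2, 482 and 606 against 1058, 748 and 1144 (0.63, 0.0361) and overlapping groups.

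Of 28 genes of the endothelium, which lines the vessels of the septa, 27 were tested, 0 were called without the block by limma or edgeR, 14 had an unadjusted limma p under 0.05 and 6 were called by DESeq2. With the block, 8 were called, all lower (3.48% of all tested genes were), and 10 had every mutant below every control (12.5% of all tested genes had). The median was -0.49, and -0.36 without mutant 3. *Aplnr*, the apelin receptor of capillaries, had 7359.7, 9351 and 6140.0 normalized counts in the controls and 4173, 4986 and 3247 in the mutants (log2 fold change -0.88, standard error 0.22, adjusted p = 0.106, 0.00999 with the block). *Kit*, a receptor tyrosine kinase of capillary and mast cells, had 3872, 4572 and 4292 against 3022, 2585 and 1767 (-0.82, 0.0348 with the block). *Erg*, a transcription factor of endothelium, had 2040.0, 2440.3 and 2154 against 1645, 1637 and 1497 (-0.47, 0.0379 with the block). *Kdr*, the VEGF receptor, had 11269.9, 10253 and 9323 against 9481, 5301 and 4970.1, with mutant 1 inside the range of the controls (adjusted p = 0.2, 0.0453 with the block).

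Mitotic genes are those of the spindle, the kinetochore and cytokinesis. Of 35, 0 were called without the block by limma or edgeR, 23 had an unadjusted limma p under 0.05 and 10 were called by DESeq2. With the block, 6 were called, all lower (3.48% of all tested genes were), and the median of the list was -0.67. The list stood at -0.80, -0.81 and -0.40 log2 units from the control mean in mutants 1, 2 and 3. *Mki67*, a marker of cycling cells, had 9728, 10623 and 6166 normalized counts in the controls, 4226 and 4678 in mutants 1 and 2, and 7117 in mutant 3. All 3 mutants were below every control in 10 of the 35 genes, as in 12.5% of all tested genes. Mutants 1 and 2 were in 30 of 35, as in 16.7% of all tested genes. The median was -0.84 without mutant 3. Control 3 was the lowest control, at -0.49, and without both lungs numbered 3 the median was -1.07. The part of the thymus transcripts of mutant 3 in these values was not tested. *Prc1*, a microtubule bundler of the dividing cell, had 3151, 2818 and 1710.1 in the controls and 1360.0, 1239 and 1114 in the mutants (log2 fold change -1.005, standard error 0.23, adjusted p = 0.0909, 0.015 with the block). *Anln*, a scaffold of the cytokinetic ring, had 2025, 1994 and 1176 against 924, 986 and 651 (-1.0, adjusted p = 0.109, 0.009 with the block). Of 39 DNA replication genes, 0 were called without the block by limma or edgeR and 0 by DESeq2. With the block, 0 were called as well. An unadjusted limma p under 0.05 was reached by 7, where 18.8% of all tested genes reached it. All 3 mutants lay below all controls in 7 of the 39, as in 12.5% of all tested genes. Mutants 1 and 2 did in 26, as in 16.7% of all tested genes. The median was -0.36, with -0.21 without control 1 and -0.50 without mutant 3. All 39 had a negative log2 fold change, as did 8653 of all 17410 tested genes. This list stood at -0.48, -0.54 and -0.05 log2 units from the control mean in mutants 1, 2 and 3.

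**Figure D4:**
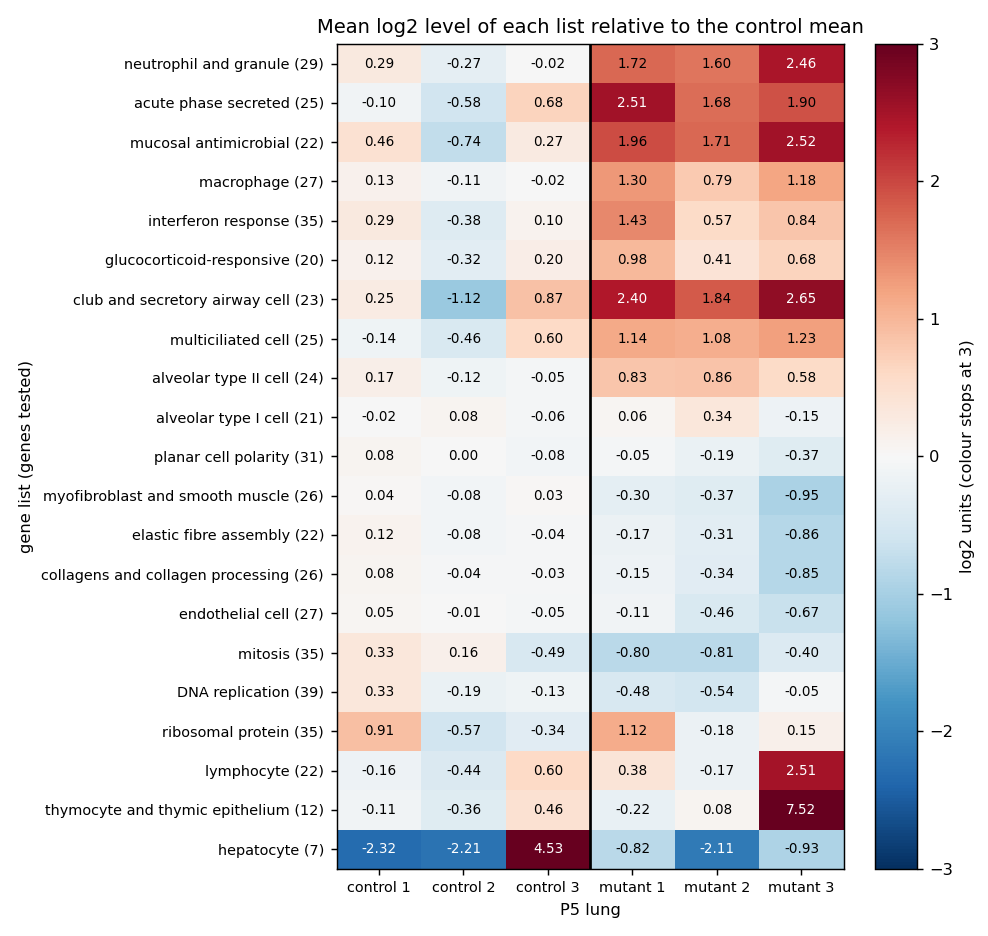
Mean log2(normalized count + 1) of each gene list in each lung relative to the mean of the 3 controls (numbers in cells, log2 units), with the number of genes tested in parentheses. Neutrophil and granule genes stand at 1.72, 1.60 and 2.46 in mutants 1, 2 and 3, and myofibroblast and smooth muscle genes at -0.30, -0.37 and -0.95.

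Ribosomal protein genes differed between the groups and, by more, between lungs numbered 1 and the rest. Of 35, 0 were called without the block by limma or edgeR, 3 had an unadjusted limma p under 0.05 and 2 were called by DESeq2. With the block, 11 were called, all higher (5.47% of all tested genes were). The median was 0.38, and 33 of the 35 genes had a positive log2 fold change. The list stood 0.91 and 1.12 log2 units above the control mean in control 1 and mutant 1, at -0.57 and -0.18 in the lungs numbered 2 and at -0.34 and 0.15 in those numbered 3, so the mutant was above the control in each pair. *Rpl13* had 8032, 1277 and 1765 normalized counts in the controls and 12849, 1681 and 2547 in the mutants, so that the mutant was above the control of its number in all 3 pairs, and both lungs numbered 1 were several fold above the rest. Without mutant 1, which leaves control 1 without its pair, the median of the list was -0.01, and without control 1 it was 0.94.

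**Figure D5:**
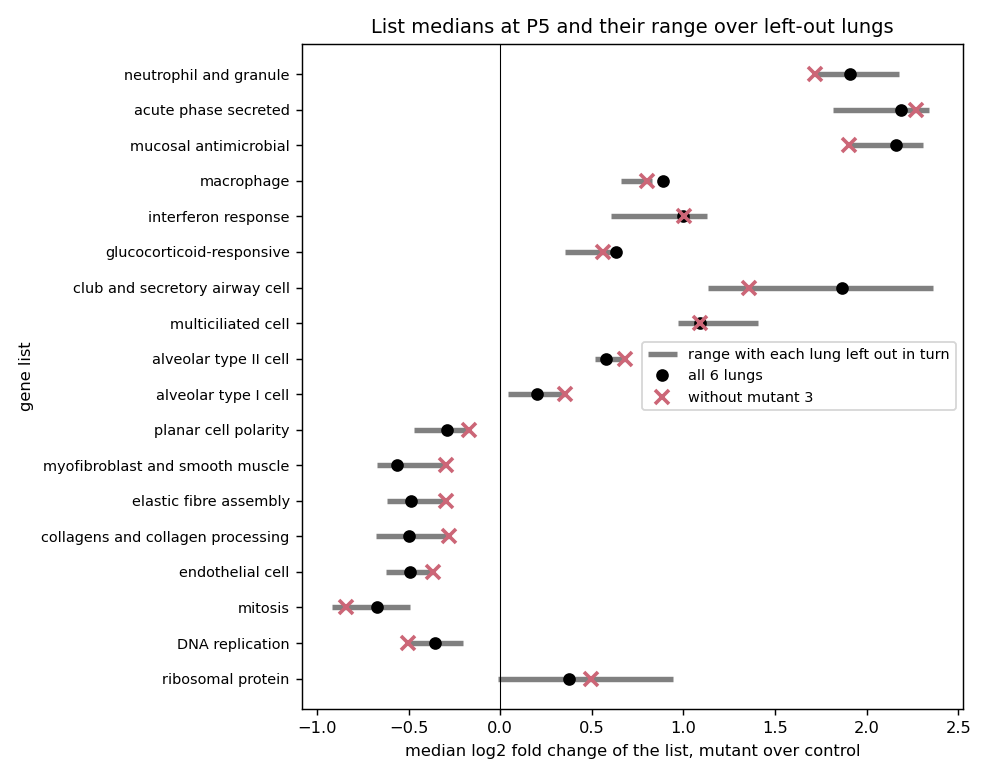
Median log2 fold change (mutant over control) of 18 gene lists with all 6 lungs (black), without mutant 3 (red crosses) and over all ways of leaving out 1 lung (grey bars). The medians of the first 10 lists stayed above 0 and those of the next 7 below 0, while that of ribosomal protein genes reached -0.01.

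The same contrast at P2 had its own 3 control and 3 mutant lungs, and 17068 genes were tested at both ages. All 93 genes called higher at P5 had a positive log2 fold change at P2 (median 1.13, against 0.00 over all genes). Of these, 39 passed the limma threshold there, all higher, where 3.67% of all genes passed in either direction (262 higher, 364 lower). The genes had been chosen by their P5 values, so the larger P5 median of 1.76 is no comparison. *Saa3* had log2 fold changes of 5.89 (standard error 0.58) at P2 and 4.28 at P5, and *Crabp1* -3.78 (standard error 0.44) and -3.69. *Spp1* had 0.73 (standard error 0.42) at P2 and 2.37 at P5. The mitotic list had a median of -1.72 at P2, with 35 of 35 genes called lower, and -0.67 at P5. DNA replication genes had -1.33 at P2, with 31 of 39 called lower, and -0.36 at P5. Among all 17068 genes, 364 were called lower at P2. Interferon response genes had a median of -0.55 at P2 and 1.00 at P5. Tested directly as a difference between the ages, 0 of 17068 genes passed in limma, with or without the block (1442, or 8.45%, at an unadjusted p under 0.05 without it).

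*Ror2* mutants at P5 also had their own controls, of which control 1 was left out because it lacks reads on part of the genome. Of the 93 genes, 87 had a positive log2 fold change in the *Ror2* mutants, where 8543 of all 16834 genes did. The median of the 93 was 0.62, and 0 passed in limma, where 0.0356% of all genes did. The median of neutrophil and granule genes was 0.57 in *Ror2* mutants and 1.91 in *Vangl2* mutants, and macrophage genes 0.06 and 0.89. Club and secretory airway genes had 1.41 and 1.86 and multiciliated cell genes 1.17 and 1.09. *Scgb3a1* had log2 fold changes of 5.05 (standard error 1.57) and 5.52, and *Igfbp2* -2.13 (standard error 0.49) and -1.63. The difference between the mutants passed in 3 of 16834 genes (0.0178%, with 3.83% at an unadjusted p under 0.05), among which *Il1rn* had a log2 fold change of 2.04 in the *Vangl2* mutants and -0.26 (standard error 0.19) in the *Ror2* mutants, a difference of 2.30 (standard error 0.26, limma adjusted p = 0.026). With the block, 0 of 16834 differences passed in limma.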

How the data were processed

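Total RNA of whole left lung lobes was sequenced by the authors, and gene counts were deposited as a signal, the read count of each gene divided by a DESeq2 size factor per lung. Per the labels' processing notes, the genome build was mm10. The aligner and the counter are not given in the sources used here. The deposited tables also hold the authors' own comparisons (mean, fold change, its error, statistic and p-values), which were not used. Dividing by the step of 1 read gave whole numbers for 100% of values (tolerance 0.02 reads), hence 16178031 to 21546673 reads on genes per lung, which limits precision for genes of few reads. Lungs were grouped by their titles.

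Genes that reached a normalized count of 1 in 3 of the 6 lungs were tested with limma 3.58.1 (R 4.3.3, trended empirical Bayes) on log2(normalized count + 1), a scale that understates changes of low genes, at a Benjamini-Hochberg adjusted p of 0.05. The replicate number was added as a block because same-numbered lungs deviated together, each pair with r over 0.1. The labels do not say what a number marks or that lungs of a group come from separate litters. edgeR 4.0.16 and DESeq2 1.42.0 on the recovered reads, other filters, pseudocounts and scalings, and leaving out each lung were alternatives. For *Ror2*, control 1 was left out, with 48.7% of genes at 0.

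The members and gene lists were chosen with earlier results of these data known, and lists overlap. Genes named were *Vangl2*, *Ror2* and the called genes that were lower. The 20 called higher with the lowest p and the 10 with the largest change were also named, or some of them only counted. Only some of the block calls with the largest changes at a mean of at least 50 normalized counts were named. From each list, up to 4 members with the lowest p and some of its defining members were named. *Prss16*, *Rpl13* and *Ptx3* were chosen after their values were seen. In 27 entries the symbol has turned into a date, and these were left as deposited.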

Additional observations from a re-analysis of the deposited data

Results flagged for a closer look

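The difference between the *Vangl2* and the *Ror2* contrast at P5, tested as an interaction in limma over 5 *Ror2* and 6 *Vangl2* lungs, passed for 3 genes.

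*Il1rn*, the antagonist of the IL-1 receptor, differed by 2.30 on the log2 scale (standard error 0.26, adjusted p = 0.026, and 0.0333 to 0.117 over the alternatives). It had 101 and 115 normalized counts in *Ror2* controls 2 and 3 and 96.2, 84.6 and 89.7 in the *Ror2* mutants, while all *Vangl2* mutants had at least 415.

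*Srp54a*, a subunit of the signal recognition particle, differed by -4.47 (standard error 0.53, adjusted p = 0.026, and 0.0522 to 0.75 over the alternatives). It was near 0 in *Ror2* controls 2 and 3, with 1.00 and 0 normalized counts, against 18.7 in control 1, which was left out, and 20.1, 21.9 and 24.8 in the *Ror2* mutants. The *Vangl2* lungs had 22.3 to 48.4, so the difference rested on the 2 *Ror2* controls.

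*Zfp429*, a zinc finger gene, differed by 3.99 (standard error 0.48, adjusted p = 0.026, and 0.0333 to 0.124 over the alternatives). It had 48.2 and 68.5 in *Ror2* controls 2 and 3 and 7.40, 4.18 and 2.86 in the *Ror2* mutants, and 97.6 to 189 in the *Vangl2* lungs.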

How the results depend on the processing

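The number of genes called without the block, 98 with 93 higher and 5 lower, depended on single lungs. Leaving out 1 lung gave 0 to 54 calls, 0 to 47 higher and 0 to 7 lower. With the replicate block there were 1558 (952 higher, 606 lower), with the block and without both lungs numbered 3 there were 1906 (1128 and 778), and by edgeR with the block 1404 (922 and 482). DESeq2 called 1257 (824 and 433). Without both lungs numbered 3 and without the block there was 1 call, higher, and 0 lower. edgeR without mutant 3 called 0, with 2243 at an unadjusted p under 0.05. Without the filter 3 were lower, and with robust empirical Bayes 11. The cause of these changes was not tested. The fit with the block has 2 residual degrees of freedom, and 1 without both lungs numbered 3.

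For *Vangl2*, the log2 fold change was -1.14 with quantile normalization (adjusted p = 0.0433), -1.003 with the block (0.0194), -1.01 by DESeq2 (0.000147), -1.10 with the block without both lungs numbered 3 (0.00887) and -0.99 by edgeR with the block (0.0235), each past the threshold, and -1.08 to -0.91 over leaving out 1 lung. The 3 differences between the *Vangl2* and *Ror2* contrasts were 0 with the block, with *Ror2* control 1 kept, and over leaving out each lung. The difference between the ages stayed at 0 genes.

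Of 2090 gene and setting pairs for 105 of the genes named, 2079 kept their direction. Those that did not were *Rag1* (-1.74 without mutant 3, -1.54 without both lungs numbered 3, with or without the block, and up to 4.33 over leaving out 1 lung), *Prss16* (-0.14 without mutant 3, -0.069 without both lungs numbered 3 with or without the block, -0.17 by edgeR without mutant 3, and up to 4.09), *Ager* (-0.068 without mutant 2, up to 0.28), *Rpl13* (-0.34 without mutant 1, up to 1.34) and *Rps29* (-0.13 without control 2, -0.38 without mutant 1, up to 1.59), none of which was called without the block.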
